A study of Homo sapiens with 9 samples.

Results

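The regions described here are 6511 ZNF143 binding peaks of HEC-1-B cells that lay apart from CTCF and cohesin and were found again after CTCF had been targeted for degradation. They were selected on measured values: a wild-type ZNF143 peak on chromosomes 1 to 22 or X was taken when it overlapped no wild-type CTCF peak and no wild-type RAD21 peak, and overlapped a ZNF143 peak of CTCF-AID cells at 24 h of auxin, each by 1 bp. Of 36770 wild-type ZNF143 peaks, 6511 (17.7%, 95% interval 17.3 to 18.1) met the rule. They are called kept ZNF143-alone peaks below. The 2657 ZNF143-alone peaks without a 24 h peak are called absent, meaning only that the 24 h list holds no peak there. The remaining wild-type ZNF143 peaks comprised 5946 that overlapped both CTCF and RAD21 and were found at 24 h, 20156 that overlapped both and were not, and 1500 that overlapped 1 of the partners.

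ZNF143 is a zinc-finger transcription factor that binds DNA through a long recognition element and is known mainly from the promoters of housekeeping genes and of small nuclear RNA genes. CTCF, another zinc-finger protein, binds an oriented motif and halts loop extrusion by cohesin, the ring complex of which RAD21 is a subunit. CTCF and cohesin therefore share many sites and anchor chromatin loops, and ZNF143 peaks have often been mapped to the same anchors. In ChIP-nexus, an exonuclease trims the immunoprecipitated DNA up to the crosslinked protein, which places a binding site to within a few base pairs.

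HEC-1-B is a human uterine adenocarcinoma line, and all groups were this line or derived from it. Wild-type cells without treatment gave a ZNF143, a CTCF and a RAD21 library. ZNF143KO cells, in which ZNF143 is labelled as knocked out, gave a CTCF and a RAD21 library. CTCF-AID cells carry CTCF fused to an auxin-inducible degron together with the TIR1 receptor, and gave a ZNF143 and a CTCF library each at 0 h and at 24 h of the auxin IAA. The knockout and the degradation of CTCF are taken from the labels. The CTCF list of CTCF-AID cells still held 13865 peaks at 24 h, against 30374 at 0 h. Whether a derived line was 1 clone or a pool is not given in the sources used here. Each of the 9 groups had 1 library, so the values below have no replicate check and no test between conditions was made. The intervals cover counting error over peaks only. Neighbouring peaks of a library are not independent, and depth differed between libraries: the background density solved from the deposited values ran from 3.89 reads per kb in the 24 h CTCF library to 26.2 in the ZNF143KO RAD21 library.

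The kept ZNF143-alone peaks covered a wide range of strength and made up most of the strongest end of the wild-type ZNF143 list. Their median signal, the authors' fold enrichment over background, was 14.07 (13.7 to 14.4), with quartiles of 8.61 and 22.5 and a range from 2.56 to 36.2. The ZNF143-alone peaks absent at 24 h had a median of 6.88, with quartiles of 6.03 and 7.75, so the upper quartile of the absent peaks lay under the lower quartile of the kept ones. The peaks with CTCF and RAD21 that were found at 24 h had a median of 14.14 (14.02 to 14.29), which does not differ from the kept ZNF143-alone peaks beyond the intervals. Their quartiles of 11.4 and 16.8 were closer together. All wild-type ZNF143 peaks had a median of 10.2. Thus the quartiles of the kept ZNF143-alone peaks lay farther apart on both sides than those of the found peaks with CTCF and RAD21.

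At the top of the list they were the most frequent class. When the wild-type ZNF143 list was divided into 20 equal groups by signal, kept ZNF143-alone peaks made up between 8.05% and 15.9% of each of the 17 weaker groups. Their share was 21.3% in group 18, 48.5% in group 19 and 78.2% in group 20, where they were 1438 of 1839 peaks with a signal from 23.6 to 36.2. No absent ZNF143-alone peak fell in that last group. Of the ZNF143-alone peaks, 30.9% were found at 24 h in the weakest group, 76.5% in group 10 and 100% in group 20. Of the peaks with CTCF and RAD21, 19.2% were found in the weakest group, 2.76% in group 4, 12.4% in group 10 and 96.6% in group 20. At every one of the 20 strengths the share found was higher for ZNF143-alone peaks, although the gap was small in the strongest group. Over all strengths 71.0% (70.1 to 71.9) of ZNF143-alone peaks and 22.8% (22.3 to 23.3) of peaks with CTCF and RAD21 were found, but the overlap with the 24 h list is part of the rule and these shares are given as a description. Over all wild-type ZNF143 peaks the share was 36.2%.

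**Figure D1:**
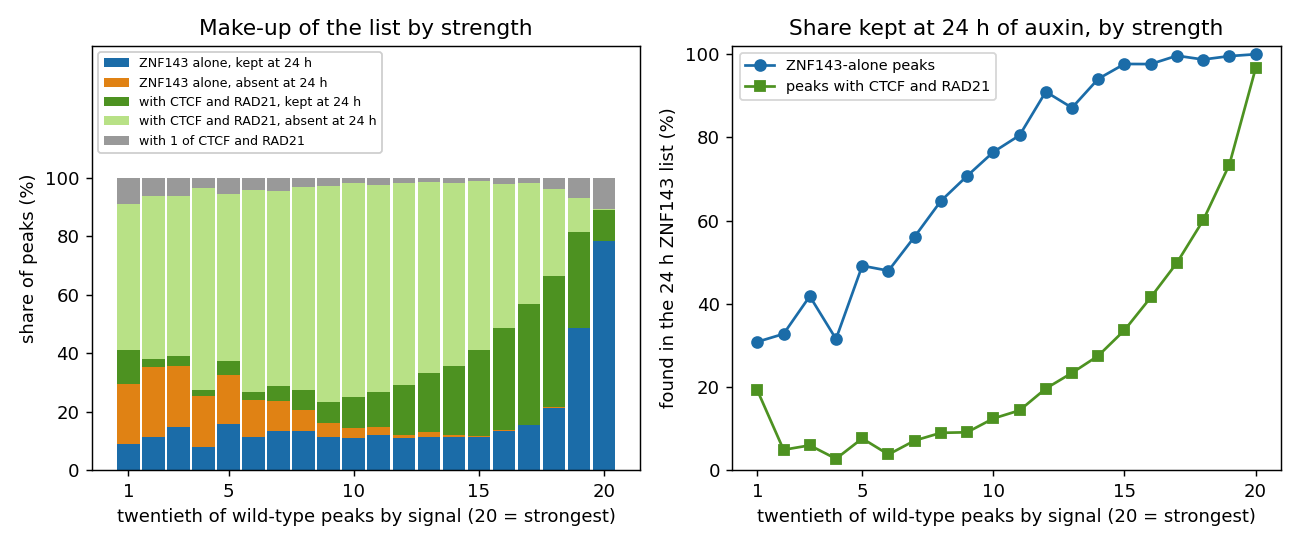
Wild-type ZNF143 peaks in 20 equal groups by signal (x axis, 20 = strongest). Left, stacked bars give the share of each class of peak in percent; right, the points give the percent found in the 24 h ZNF143 list. Kept ZNF143-alone peaks reach 78.2% of the strongest group.

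The summit read counts, solved from the deposited signal and p value, gave the same order. The median summit held 19 reads in kept ZNF143-alone peaks, with quartiles of 11 and 43, against 8 reads in absent ones and 19 reads, with quartiles of 16 and 24, in found peaks with CTCF and RAD21. The counts of the wild-type ZNF143 list stopped at 54 reads. Among kept ZNF143-alone peaks 1367 (21%) held at least 48.6 reads, close to that ceiling, compared with 261 (4.39%) of found peaks with CTCF and RAD21 and 1 (0.0376%) of the absent ZNF143-alone peaks. Signal near the ceiling no longer ranks peaks by reads.

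The widths of the kept ZNF143-alone peaks were spread as broadly. Their median width was 88 bp, with quartiles of 54 and 160 bp and a range from 27 to 1113 bp. Absent ZNF143-alone peaks had a median of 34 bp, and found peaks with CTCF and RAD21 one of 87 bp with quartiles of 71 and 105 bp. By width, 829 kept ZNF143-alone peaks were narrower than 40 bp and had a median signal of 7.15. A further 2781 were 40 to 99 bp wide with a median signal of 10.5, and 1850 were 100 to 199 bp wide with a median signal of 22.8. The 1051 widest, at 200 bp or more, were 16.1% (15.3 to 17.1) of the kept ZNF143-alone peaks and had a median signal of 23.3. Only 229 (3.85%) of the found peaks with CTCF and RAD21, and 4 (0.151%) of the absent ZNF143-alone peaks, were that wide.

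Width differed between the classes at equal signal in part of the range. Between a signal of 14 and 16 the median width was 90 bp in kept ZNF143-alone peaks and 89 bp in found peaks with CTCF and RAD21. Between 18 and 20 the widths were 134 bp (125 to 144) and 98 bp, and between 20 and 24 they were 168 bp (159 to 184) and 112.5 bp (107 to 121). Kept ZNF143-alone peaks were thus the wider class at these strengths. Between 24 and 28, where many peaks neared the ceiling, the medians were 191 and 190 bp. In every band below 14 the order was the other way, with medians of 42 and 47 bp between 4 and 6, 67 and 78 bp between 10 and 12, and 77 and 85 bp between 12 and 14. Between 28 and 32 the medians were 173 and 184.5 bp, with overlapping intervals.

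The strongest kept ZNF143-alone peak lay at chr15:76461511-76461670 (hg19), 160 bp wide, with a signal of 36.2. It had a signal of 29.2 and a width of 233 bp in the 0 h ZNF143 list, and a signal of 28.8 and a width of 203 bp in the 24 h list. The nearest wild-type CTCF and RAD21 peaks lay 16457 and 16471 bp away. At chr4:6374717-6374889 the signals were 35.9 in wild-type cells, 30.2 at 0 h and 31.5 at 24 h, with widths of 173, 235 and 257 bp. This peak stood at percentile 99.99 of the 24 h list, the highest of the 10 strongest. At chr19:14743218-14743352 the signals were 35.2, 30.9 and 25.5, and the peak ranked at percentile 99.96 at 0 h and 98.2 at 24 h. At chr16:86668014-86668151 they were 35.2, 29.5 and 24.3, with widths of 138, 201 and 211 bp. The lowest 24 h rank of the 10 strongest was that of chr2:234722821-234722944, with signals of 34.5, 28.9 and 20.3 and a 24 h percentile of 89.5.

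The 10 strongest kept ZNF143-alone peaks had wild-type signals from 34.5 to 36.2, widths from 81 to 173 bp and 47 to 54 summit reads. All 10 were in the 0 h ZNF143 list, at percentiles from 99.3 to 99.96. Their summits in the 0 h list lay 0 to 9 bp from the wild-type ones, and those in the 24 h list 1 to 12 bp. Their distance to a wild-type CTCF peak ran from 7631 to 77748 bp. Of these 10, only chr14:70883754-70883916 overlapped a CTCF or RAD21 peak of another line, a ZNF143KO RAD21 peak with a signal of 6.98. Genes at these positions were not analysed here.

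In CTCF-AID cells without auxin, nearly all of the regions were found. The 0 h ZNF143 list, which the rule did not use, held a peak at 6376 of the 6511 kept ZNF143-alone peaks (97.9%, 97.6 to 98.3), against 73.1% of all wild-type ZNF143 peaks. It held a peak at 1249 of 2657 absent ZNF143-alone peaks (47.0%), a difference of 50.9 points (48.98 to 52.8). The remaining absent peaks were missing from the list of this line before auxin as well. The found peaks with CTCF and RAD21 were in the 0 h list in 99.4% of cases, and those not found at 24 h in 61.2%. The 0 h and 24 h ZNF143 lists come from the same line, and kept and absent peaks were told apart by the 24 h list. A higher 0 h share of the kept peaks therefore follows wherever these lists resemble each other, and the difference is a description.

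The gap to the absent peaks, which the choice by the 24 h list favours, was present at each strength. In 5 equal groups of the wild-type list by signal, 91.3%, 95.1%, 98.9%, 99.2% and 100% of kept ZNF143-alone peaks were in the 0 h ZNF143 list, from the weakest group to the strongest. For absent ZNF143-alone peaks the shares were 39.6%, 52.7%, 65.8%, 80% and 80%. The difference was 51.7 points (48.4 to 54.7) in the weakest group and 20 points (5.67 to 50.98) in the strongest, which held only 10 absent peaks. The strongest group held 3005 kept ZNF143-alone peaks, and every one of them was in the 0 h list.

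The 135 kept ZNF143-alone peaks missing at 0 h (2.07%) were weak and narrow, with a median signal of 6.87 and a median width of 34 bp. Those found at 0 h had medians of 14.3 and 90 bp. The strongest of the 135 was chr2:239007252-239007293, 42 bp wide, with a signal of 14.3 in wild-type cells and 8.47 at 24 h. The next was chr3:75690515-75690545, 31 bp wide, with signals of 12.8 and 10.5.

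Within the 24 h list, kept ZNF143-alone peaks ranked above the found peaks with CTCF and RAD21, whereas within the wild-type and 0 h lists they did not. Their median percentile of signal was 74.97 in the wild-type list and 77.3 in the 0 h list, against 75.4 and 79.7 for found peaks with CTCF and RAD21. In the 24 h list the medians were 75.1 (74.3 to 75.8) and 40.5 (39.6 to 41.9). The median signals were 15.6 and 16.2 at 0 h, and 13.5 and 8.09 at 24 h. The median widths were 153 and 124 bp at 0 h, and 124 and 59 bp at 24 h. The 24 h list chose the members of both classes, so its values are a description, and percentiles of lists of different length are compared here between classes only. The found peaks with CTCF and RAD21 were mostly not free of CTCF at 24 h. Of these, 5221 of 5946 (87.8%) overlapped a peak of the 24 h CTCF list, against 39.4% of those with both partners not found at 24 h.

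The same held among peaks of like wild-type signal in the bands from 8 to 28. Between 14 and 16, kept ZNF143-alone peaks had a median percentile of 76.0 at 0 h and found peaks with CTCF and RAD21 one of 82.0. At 24 h the medians were 74.2 (73.2 to 75.5) and 39.7 (38.2 to 41.9). Between 20 and 24 they were 88.4 and 90.3 at 0 h, and 86.2 and 68.8 at 24 h. The classes came together at the top: between 28 and 32 the 24 h medians were 96.3 and 95.8, with overlapping intervals. Between 6 and 8, kept ZNF143-alone peaks ranked higher already at 0 h, at 47.4 (45.7 to 49.4) against 25.9 (23.3 to 30.5). At 24 h the medians of that band were 43.2 and 22.9. In the weakest band, between 4 and 6, the found peaks with CTCF and RAD21 ranked at 1.124 at 0 h and 2.03 at 24 h, against 40.3 and 41.5 for kept ZNF143-alone peaks. Among peaks with a signal under 6, the solved background exceeded 5 times its most frequent value at 258 of 267 found peaks with CTCF and RAD21. It did so at 60 of 323 kept ZNF143-alone peaks. Over all strengths the order was reversed, with 1597 of 6511 kept ZNF143-alone peaks (24.5%) and 972 of 5946 found peaks with CTCF and RAD21 (16.3%). The share was 3.61% for absent ZNF143-alone peaks and 20.3% for peaks with 1 of the partners. Those 1597 had a median signal of 21.9 and a median of 54 summit reads. The part of raised background in the ranks, signals and widths was not tested.

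**Figure D2:**
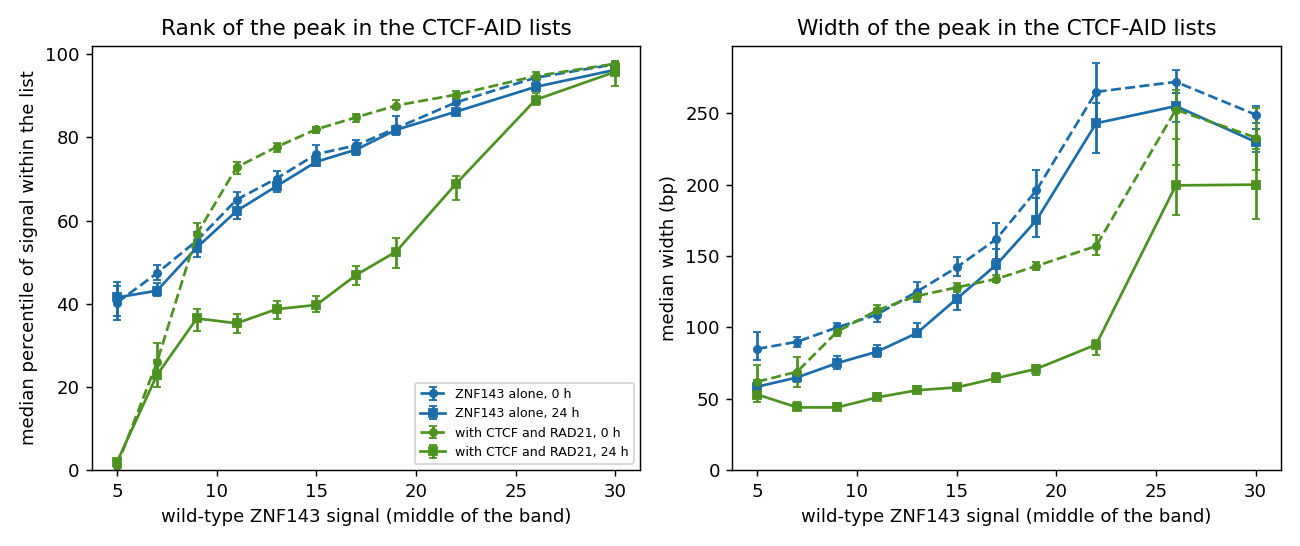
Median percentile of signal within the CTCF-AID ZNF143 lists (left) and median peak width in bp (right) against the wild-type ZNF143 signal, for kept ZNF143-alone peaks (blue) and found peaks with CTCF and RAD21 (green) at 0 h (dashed) and 24 h (solid); bars are 95% intervals of the median over peaks. At a signal of 14 to 16 the classes rank at 74.2 and 39.7 in the 24 h list.

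The order of the kept ZNF143-alone peaks by strength was carried over between libraries. Across these peaks the Spearman correlation of wild-type signal was 0.808 with the 0 h signal (n = 6376) and 0.827 with the 24 h signal (n = 6511). For found peaks with CTCF and RAD21 it was 0.651 and 0.418. The correlations of width were 0.762 and 0.776 for kept ZNF143-alone peaks, and 0.648 and 0.486 for the other class. These values are across peaks of the same libraries, which share each library's depth, and are given without a test. The classes are not compared on equal terms. The wild-type signal of kept ZNF143-alone peaks spread wider, with quartiles of 8.61 and 22.5 against 11.4 and 16.8, and both classes were chosen by the 24 h list. The part of that spread in the correlations was not tested.

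The summits of kept ZNF143-alone peaks lay close together in the lists. The median distance from the wild-type summit was 8 bp in both the 0 h and the 24 h list. For found peaks with CTCF and RAD21 it was 8 bp at 0 h and 10 bp at 24 h, so this closeness was not particular to the kept ZNF143-alone peaks. Among the kept ZNF143-alone peaks, the 24 h summit lay within 10 bp for 58.5% and the 0 h summit for 60.6%. The 24 h summit lay more than 50 bp away for 421 (6.47%). In the 24 h list itself, 6331 of 16392 peaks (38.6%) lay at a kept ZNF143-alone peak. They were 75.4% of its strongest 500 peaks, 79.8% of its strongest 1000 and 14.7% of its weakest 5000. The rule used this list to choose the regions, so these shares are a description.

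Few of the regions carried a CTCF peak in any other library. In CTCF-AID cells at 0 h, 74 of 6511 kept ZNF143-alone peaks (1.14%, 0.893 to 1.42) overlapped a CTCF peak, compared with 65.9% of all wild-type ZNF143 peaks. At 24 h the count was 11 (0.169%, 0.0844 to 0.302), compared with 36.1% of all. In ZNF143KO cells it was 131 (2.01%, 1.68 to 2.38), compared with 73.1% of all. The rule removed peaks with wild-type CTCF, so low shares follow from it wherever CTCF lists resemble each other. The absent ZNF143-alone peaks, which passed the same filter, gave 0.866% at 0 h, 0.151% at 24 h and 1.43% in ZNF143KO cells. The differences of 0.271 points (-0.217 to 0.678), 0.0184 points (-0.229 to 0.180) and 0.582 points (-0.0313 to 1.117) were within counting error over all strengths. In the weakest of 5 equal groups by signal, however, 2.50% of kept and 0.662% of absent ZNF143-alone peaks overlapped a 0 h CTCF peak, a difference of 1.84 points (0.801 to 3.20) that lay outside it. In the other groups of that list, and in every group of the 24 h and ZNF143KO CTCF lists, the interval of the difference included 0. The difference in the weakest group rested on 20 kept and 10 absent peaks. The intervals were not adjusted for the number of groups and lists compared. With regions at least 1 kb from any wild-type CTCF or RAD21 peak, 0.375% overlapped a 0 h CTCF peak and 0.0750% a 24 h one, and when overlap was replaced by summits within 50 bp the 24 h share was 0.328%.

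RAD21 in ZNF143KO cells was the exception. A RAD21 peak of these cells overlapped 560 kept ZNF143-alone peaks (8.60%, 7.93 to 9.31), compared with 74.5% of all wild-type ZNF143 peaks and with 49 (1.84%, 1.37 to 2.43) of the absent ZNF143-alone peaks. The difference to the absent peaks was 6.76 points (5.88 to 7.59). By the 5 groups of signal the share of kept ZNF143-alone peaks was 5.74%, 4.51%, 7.67%, 9.15% and 10.8%, from weakest to strongest. The difference to the absent peaks of the same group was 4.35 points (2.77 to 6.25) in the weakest group, 1.603 points (-0.154 to 3.35) in the next and 6.77 points (3.94 to 8.88) in the middle one. The intervals of the upper groups, with 55 and 10 absent peaks, included 0.

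**Figure D3:**
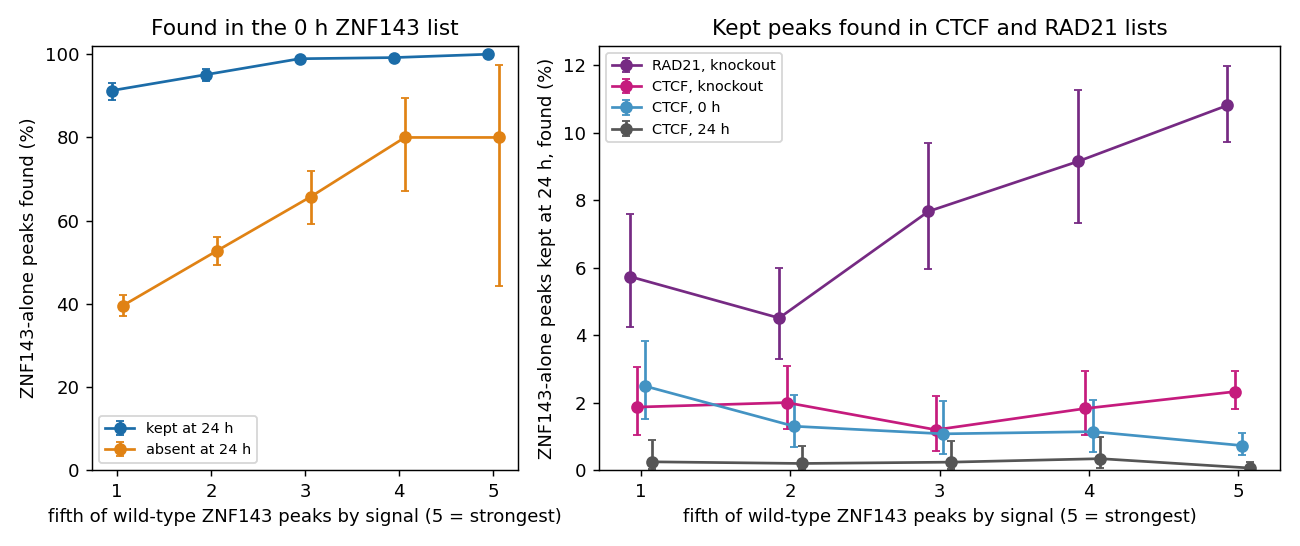
Left, percent of kept (blue) and absent (orange) ZNF143-alone peaks found in the 0 h ZNF143 list, in 5 equal groups of wild-type signal (x axis, 5 = strongest). Right, percent of kept ZNF143-alone peaks that overlap a peak of each CTCF and RAD21 list; bars are exact 95% binomial intervals, and the RAD21 share in ZNF143KO cells ends at 10.8%.

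The kept ZNF143-alone peaks with ZNF143KO RAD21 were strong as ZNF143 peaks, and the RAD21 peaks on them were weak as RAD21 peaks. The 560 had a median wild-type ZNF143 signal of 17.5 (16.2 to 18.7), against 13.7 (13.4 to 14.1) for the other 5951. The RAD21 peaks there had a median signal of 7.51, a median width of 42 bp and a median percentile of 11.8 within the ZNF143KO RAD21 list. At found peaks with CTCF and RAD21 the same list gave 16.7, 204 bp and percentile 65.2. The RAD21 summit lay a median of 12 bp from the ZNF143 summit at the former and 13 bp at the latter. The distance to wild-type CTCF was 11274.5 bp (9736 to 13536) with and 10019 bp (9604 to 10539) without a ZNF143KO RAD21 peak, with overlapping intervals. The ZNF143KO RAD21 library had 26.2 background reads per kb and the wild-type RAD21 library 7.82, so genotype and depth cannot be told apart. No wild-type RAD21 library of like depth was analysed here.

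The ZNF143KO CTCF peaks at kept ZNF143-alone peaks were also weak, at a median percentile of 9.33 of their list and a width of 43 bp, against 77.1 and 167 bp at found peaks with CTCF and RAD21. Their summits lay a median of 29 bp (18 to 33) from the ZNF143 summit, against 10 bp. The 131 peaks concerned lay a median of 5143 bp (2326 to 7871) from wild-type CTCF, against 10227.5 bp (9840 to 10732) for the remaining kept ZNF143-alone peaks. The strongest was chr1:109079602-109079759, with a ZNF143 signal of 32.6 and a ZNF143KO CTCF signal of 9.51 at percentile 19.1. The next, chr10:105110850-105111015, had signals of 32.1 and 6.26. Solved background came to 18.9 reads per kb for CTCF in ZNF143KO cells and 8.64 in wild-type cells.

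Over these CTCF and RAD21 lists of the derived lines together, 5848 kept ZNF143-alone peaks (89.8%, 89.1 to 90.5) overlapped no peak in any of the 4 lists. Combinations of lists were counted for kept ZNF143-alone peaks only. Singly, the 4 lists held a peak at 36.1% to 74.5% of all wild-type ZNF143 peaks. The rule removed peaks with wild-type CTCF or RAD21, so a high share without a peak follows from it wherever the lists resemble each other. Exactly 1 list had a peak at 574 (8.82%), and 2 or more had one at 89 (1.37%). The ZNF143KO RAD21 list was the only one for 487, with a median ZNF143 signal of 17.9. The ZNF143KO CTCF list was the only one for 62, and the 0 h CTCF list for 24. At 57 of them both ZNF143KO lists had a peak, and at 4 of them all 4 lists had one. A total of 5724 (87.9%) were found at 0 h by ZNF143 and in none of the 4.

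Most of the kept ZNF143-alone peaks were some kilobases away from CTCF and RAD21. The median distance to the nearest wild-type CTCF peak was 10153 bp (9745 to 10608), with quartiles of 2997 and 25359.5 bp and a highest value of 429430 bp. To RAD21 it was 11693 bp (11143 to 12232), with quartiles of 3727.5 and 27632 bp. A CTCF peak lay within 1 kb of 967 (14.9%), within 10 kb of 3230 (49.6%) and within 50 kb of 5857. The nearest CTCF and nearest RAD21 peak overlapped each other for 63.7% of the regions.

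The absent ZNF143-alone peaks were somewhat farther away, with medians of 12940 bp (12144 to 13724) to CTCF and 14009 bp (13241 to 15045) to RAD21. Within 10 kb of CTCF there were 49.6% of kept and 42.8% of absent ZNF143-alone peaks, a difference of 6.78 points (4.53 to 9.01). A RAD21 peak lay within 10 kb of 45.8% of the former and 40.1% of the latter, which differ by 5.75 points (3.52 to 7.96). Within 1 kb of CTCF the difference was 3.26 points (1.73 to 4.72). Kept ZNF143-alone peaks were therefore the nearer class at each of these distances. Within 100 bp of CTCF they were not, with 2.13% of kept and 2.26% of absent peaks. The classes differed in strength, and the part of strength in these distances was not tested.

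**Figure D4:**
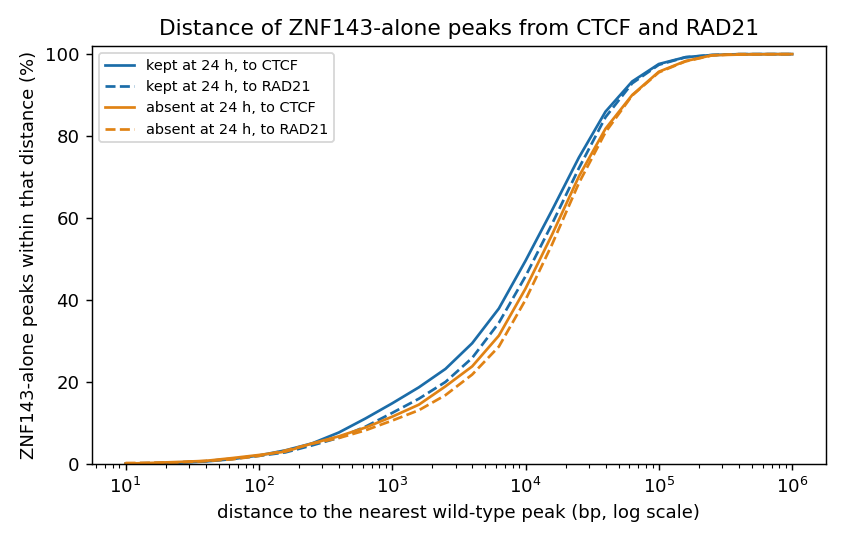
Cumulative percent of ZNF143-alone peaks (y axis) whose nearest wild-type CTCF (solid) or RAD21 (dashed) peak lies within the distance on the x axis (bp, log scale), for kept (blue) and absent (orange) peaks. The median distance of kept ZNF143-alone peaks is 10153 bp to CTCF and 11693 bp to RAD21.

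The presence of CTCF in the other lines changed with this distance. Of the 60 kept ZNF143-alone peaks within 50 bp of a wild-type CTCF peak, 16.7% overlapped a 0 h CTCF peak, 23.3% a ZNF143KO CTCF peak and 33.3% a ZNF143KO RAD21 peak. Of the 333 peaks at 201 to 500 bp the shares were 3.003%, 2.40% and 8.11%. Of the 2025 peaks more than 20000 bp away they were 0.346%, 1.19% and 9.23% (8.01 to 10.6). The 0 h CTCF share thus dropped along the whole range of distance, while the ZNF143KO RAD21 share was as high far from wild-type CTCF as at 201 to 500 bp.

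The peaks at the edges of the rule were as follows. The smallest overlap with a 24 h ZNF143 peak was 1 bp, at chr2:133195670-133195718 (signal 5.82) and at chr2:198318080-198318106 (signal 6.72). Just outside, chr11:85935803-85935830 (signal 6.81) and chr19:4844556-4844595 (signal 5.69) touched a 24 h peak without sharing a base. On the CTCF side, chr5:64920781-64920885 (signal 8.71) abutted a wild-type CTCF peak and chr12:48499824-48499878 (signal 9.11) lay 1 bp from one. The ZNF143 peaks with the smallest overlaps with CTCF, both left out, were chr3:61237069-61237290 (1 bp, signal 14.96) and chr12:77718666-77718712 (2 bp, signal 6.58). The former also overlapped a wild-type RAD21 peak, so the rule left it out on that side as well.

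The regions were spread over all 23 chromosomes analysed, with chromosome 19 standing apart. It held 673 kept ZNF143-alone peaks among 2026 wild-type ZNF143 peaks (33.2%, 31.2 to 35.3), against 16.8% on the other chromosomes together. Per Mb of the span covered by peaks, chromosome 19 had 11.4 kept ZNF143-alone peaks and 22.9 other ZNF143 peaks, and the rest of the genome 2.02 and 10.0. Chromosome 17 followed in density with 4.63 per Mb, and chromosome 16 in share with 23.4%. The lowest share was on chromosome 18 at 11.5% (9.20 to 14.1), and the lowest density on chromosome 4 at 0.848 per Mb. On chromosome 19, 78.3% (75.3 to 81.0) of the ZNF143-alone peaks were found at 24 h, and the kept ones had a median signal of 16.4, against 13.7 elsewhere. The density of genes along the chromosomes was not analysed here.

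Most kept ZNF143-alone peaks had no close neighbour of their kind. The median distance to the nearest other one was 61539 bp, with quartiles of 12543 and 198020 bp. Within 10 kb of another lay 1475 (22.7%, 21.6 to 23.7), and within 500 bp lay 875 (13.4%). Found peaks with CTCF and RAD21 had a neighbour of their own class within 10 kb in 25.01% of cases and within 500 bp in 7.94%. For absent ZNF143-alone peaks these shares were 7.75% and 2.79%. The classes differ in number, which bears on these shares. With any ZNF143 peak counted as a neighbour, 18.2% of kept ZNF143-alone peaks had one within 500 bp, compared with 10.5% of absent ones, 11.97% of found peaks with CTCF and RAD21 and 2.42% of those not found. Peaks with 1 of the partners had one in 18% of cases (16.1 to 20.04), no different from the kept ZNF143-alone peaks beyond counting error.

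Linked at 10 kb, the regions formed 5036 singles, 569 pairs, 94 groups of 3, 9 groups of 4, and 1 group each of 8 and 11. The group of 11 covered chr19:49469030-49497174, with signals from 6.40 to 18.1, and all 11 were in the 0 h ZNF143 list. It lay in the fullest 100 kb bin, chr19:49400001-49500000, where 15 of 19 wild-type ZNF143 peaks were kept ZNF143-alone peaks. The group of 8 was compact, at chr3:195439825-195441002, spanning 1.178 kb with signals from 5.75 to 11.5 and a median width of 50.5 bp. The 9 groups of 4 were tied in size, and the first of them by position, at chr1:11959083-11970268, had signals from 4.31 to 12.9. In all, 4727 bins held any of the regions, 310 of them on chromosome 19. Of these bins, 48 held 5 or more of the regions, and 20 of the 48 were on chromosome 19. Without chromosome 19, a choice made after seeing the data, 20.5% of the regions had another within 10 kb.

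The distances between close neighbours were most often between 150 and 249 bp. Of 460 neighbouring pairs of kept ZNF143-alone peaks with summits at most 500 bp apart, the median distance was 234.5 bp (228 to 243), with quartiles of 181.75 and 306.25 bp. In bins of 50 bp there were 44 pairs from 100 to 149 bp, 85 from 150 to 199 bp, 122 from 200 to 249 bp and 67 from 250 to 299 bp. Found peaks with CTCF and RAD21 gave 37, 50, 43 and 40 pairs in the same bins, a flatter distribution with a median of 251 bp (229 to 274). Absent ZNF143-alone peaks gave 38 pairs with a median of 168.5 bp (139 to 245). From 500 to 1000 bp there were 54 kept pairs, 124 of found peaks with CTCF and RAD21 and 13 absent ones, which do not enter these medians. Peaks of a list do not overlap each other, so peak width limits the shortest distances. In kept ZNF143-alone pairs the weaker peak had a median signal of 8.59 and the stronger one of 17.96. For 195 of the 460 pairs (42.4%), both peaks overlapped the same 24 h peak. Such pairs are not separate regions in the 24 h list, and 381 of the kept ZNF143-alone peaks (5.85%) shared their 24 h peak with another.

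**Figure D5:**
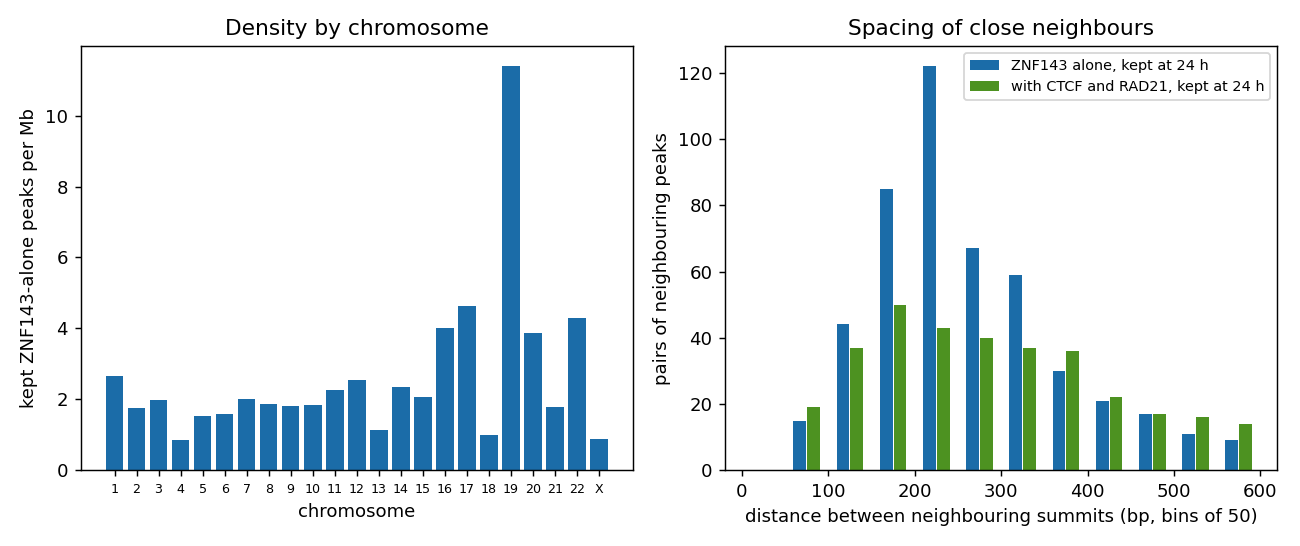
Left, kept ZNF143-alone peaks per Mb on each chromosome (bars); right, number of neighbouring pairs by the distance between their summits in bins of 50 bp, for kept ZNF143-alone peaks (blue) and found peaks with CTCF and RAD21 (green). Chromosome 19 stands at 11.4 per Mb, and the 200 to 249 bp bin holds 122 kept ZNF143-alone pairs.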

How the data were processed

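The peak lists of 9 ChIP-nexus libraries were read as deposited. The submitters' processing notes name cutadapt 2.10, Bowtie2 2.3.5.1, SAMtools 1.12, MACS2 2.2.7.1, deepTools and the builds GRCh37 and hg19, without role or order. Settings, filters and pooling are not given in the sources used here. Each peak carries the authors' signal value, read here as a ratio (fold enrichment over background), the authors' −log10 p and −log10 q, and a deposited score made from −log10 q. The ZNF143KO lists start at a −log10 q of 5.00 and the other lists between 3.00 and 3.02. The signal was used only to describe and rank peaks within a list.

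Peaks on chromosomes 1 to 22 and X were compared by overlap of 1 bp. Widths, distances and clusters (neighbours linked within 10 kb) were computed from the coordinates, which are printed 1-based on hg19. A distance is the number of bases between 2 peaks. Summit reads and background were solved from the signal and −log10 p under a Poisson model with 1 added to both, an assumption about the caller. Whole counts gave −log10 p back within 0.002 for 100% of peaks, and read depth itself is unknown. Shares carry exact Clopper-Pearson 95% intervals, differences Newcombe intervals, and medians intervals from order statistics. Stricter q values, summits in place of overlap, a margin of 1 kb, and leaving out crowded bins or chromosome 19 were tried as alternatives.

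The regions, lists and named peaks were chosen with earlier results of these data known. The named peaks are the 10 of highest signal, the 3 fullest clusters (ties by position), those just inside and just outside the rule, the 2 strongest absent at 0 h and the 2 strongest with ZNF143KO CTCF. Start sites, motifs and sequences were not analysed here, as the reference tables used another build. Checks against known answers found that 0 of 432 overlaps, 0 of 2000 summit counts and 0 of 100 gaps were wrong. The calculations ran in scipy 1.17.1, pandas 2.3.3 and numpy 2.4.6 under Python 3.11.15, with figures from matplotlib 3.10.9.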

Additional observations from a re-analysis of the deposited data

Results flagged for a closer look

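Outside the chromosomes compared, on the mitochondrial and unplaced sequences, 34 wild-type ZNF143 peaks met the same rule. They were among 62 ZNF143-alone peaks and 262 wild-type ZNF143 peaks there, and their median signal was 8.03. These sequences were left out of the comparisons by choice, so the count only records that such peaks exist there, and they entered none of the counts above.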

How the results depend on the processing

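The number of kept ZNF143-alone peaks was 6361 with a −log10 q of at least 5 in every list, 6401 with summits within 50 bp in place of overlap, 5335 without any wild-type CTCF or RAD21 peak within 1 kb, 6230 without crowded bins and 5838 without chromosome 19, all within 1.5 times of 6511. Of 60 alternative values 35 stayed within the interval of the value reported or within 1.5 times of the count. With the stricter q the values that left it were a share of ZNF143-alone peaks of 73.2%, a median signal of 14.8, a width of 93 bp, distances of 10730 bp to CTCF and 12697 bp to RAD21, and 9.98% with ZNF143KO RAD21. With summits within 50 bp they were 66.5%, 14.6, 91 bp, 17.2% with another region within 10 kb, 9628 and 10937 bp, 94.3% in the 0 h ZNF143 list, and 0.828%, 0.328%, 1.66% and 7.66% in the 0 h CTCF, 24 h CTCF, ZNF143KO CTCF and ZNF143KO RAD21 lists. With the margin of 1 kb they were 20.1% within 10 kb, 13356 and 14844 bp, and 0.375%, 0.0750% and 1.42% in the 0 h, 24 h and ZNF143KO CTCF lists, where the alternative itself removes the nearest peaks. The share with another region within 10 kb was 20.5% without crowded bins and 20.5% without chromosome 19, the latter chosen after seeing the data. The cause of the other moves was not tested. No paired analysis was possible because each group had 1 library and the labels give no replicate numbers. Depth limits the absence of a peak: ZNF143 had 5.98 solved background reads per kb in wild-type cells, 13.5 before and 12.1 after auxin, while the CTCF libraries held 12.8 before and 3.89 after it. A region without a peak may hold binding below the threshold of that list.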
